A study of Mus musculus with 16 samples.

Results

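The Lce3 genes Lce3a, Lce3b, Lce3c, Lce3d, Lce3e and Lce3f were described in mouse dorsal skin, as the rows of the count tables that carry these 6 symbols among 23282 rows in all. All 6 rows held counts, and over all 16 libraries all 6 passed edgeR's filter on low counts. Lce3b and Lce3e passed it only through the groups treated with DNCB, described below, where they were high. The study asked how a diet poor in ligands of the aryl hydrocarbon receptor (AhR, a transcription factor activated by small molecules from food, microbes and pollutants) bears on experimental atopic dermatitis, and what the herbal water extract Bojungikgi-tang (BJIKT) changes there. The mice were male wild-type C57BL/6N animals, bought at 3 weeks of age and adapted for 1 week. The Cont group was fed normal chow, and the LowAhR group a low AhR ligand diet with AhR-ligand-free paper bedding for 12 weeks. The LowAhR+AD group was on that diet and had 1% DNCB, a contact sensitizer that produces dermatitis, put on the back 2 times weekly from week 2 of the diet. The LowAhR+AD+BJ group had the diet, DNCB and BJIKT by gavage at 1 g/kg/day. Each group had 4 libraries, from 4 mice. DNCB was given only together with the low AhR ligand diet, so a comparison of a DNCB group with Cont holds both changes, which cannot be told apart.

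Late cornified envelope (Lce) genes encode small proteins that keratinocytes make as they die at the skin surface. Transglutaminases cross-link them into the cornified envelope, the protein shell under the membrane of the flattened surface cells. The Lce genes stand in the epidermal differentiation complex, a cluster that also holds the small proline-rich (Sprr), filaggrin-like and S100 genes. The Lce1 genes are expressed in intact epidermis, whereas the Lce3 genes are known for low expression in intact skin and for induction after wounding, tape stripping and in psoriatic plaques, and their proteins for antimicrobial activity in vitro. No separate function of a single mouse Lce3 gene is established firmly enough to be given here, so the members are described side by side.

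In the RefSeq annotation of GRCm38, the 6 genes spanned 68.1 kb of chromosome 3 without another row of the tables between them. In the GENCODE annotation each had 2 exons and coded for 98 residues. Lce3a stood alone on the minus strand (chr3:92925287-92926230). The other members followed on the plus strand, Lce3b at chr3:92932979-92934096, Lce3c at chr3:92944486-92945730, Lce3d at chr3:92957390-92958574, Lce3e at chr3:92967061-92968281 and Lce3f at chr3:92992217-92993426. QuantSeq libraries read each messenger RNA from its poly(A) end, so a transcript of any length gives about 1 read, and the counts stand for the last part of each gene.

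To describe the 6 copies, the 100 bases before each transcription start are shown (RefSeq, GRCm38.p6, 5′ to 3′ on the strand of the gene, 6 of 6 members matched). What these bases have to do with the levels of the genes was not tested. Capitals mark words of letters that at least 5 of the 6 promoters share.
Lce3a (minus strand, chr3:92926231-92926330): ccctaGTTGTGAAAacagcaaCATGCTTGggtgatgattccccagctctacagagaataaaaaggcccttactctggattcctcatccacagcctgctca
Lce3b (plus strand, chr3:92932879-92932978): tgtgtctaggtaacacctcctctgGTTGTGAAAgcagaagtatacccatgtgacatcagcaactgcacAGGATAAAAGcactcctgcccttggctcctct
Lce3c (plus strand, chr3:92944386-92944485): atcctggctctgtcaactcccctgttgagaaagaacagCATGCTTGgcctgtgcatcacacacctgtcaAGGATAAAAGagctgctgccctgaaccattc
Lce3d (plus strand, chr3:92957290-92957389): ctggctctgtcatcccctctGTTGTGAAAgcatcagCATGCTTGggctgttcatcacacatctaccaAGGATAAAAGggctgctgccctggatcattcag
Lce3e (plus strand, chr3:92966961-92967060): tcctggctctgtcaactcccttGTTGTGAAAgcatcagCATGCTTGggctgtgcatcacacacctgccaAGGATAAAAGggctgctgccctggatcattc
Lce3f (plus strand, chr3:92992117-92992216): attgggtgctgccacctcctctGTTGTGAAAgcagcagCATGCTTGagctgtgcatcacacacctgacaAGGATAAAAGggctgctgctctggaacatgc

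AGGATAAAAG stood in 5 promoters, those of Lce3b to Lce3f, with its first base 31 to 33 bases before the start, and in 0.0884% of 32817 promoters searched over 250 bases on both strands. GTTGTGAAA was in 5 promoters (0.201% of all promoters) and was missing from that of Lce3c. CATGCTTG was in 5 promoters (0.801% of all promoters) and was missing from that of Lce3b. These words were picked from the 6 promoters themselves, and close copies share letters by descent, so the counts describe the copies and carry no test. Of 4 motifs searched by name over the same 250 bases and both strands, the AP-1 word TGANTCA was in 0 of the 6 (6.75% of all promoters), the STAT word TTCNNNGAA in 0 (7.01%) and the core GCGTG of the AhR response element in 0 (28.1%). The TATA word TATAAA was in 1, that of Lce3e (12.4% of all promoters). This match lay at position -243 from the start, on the strand opposite to the gene. Only exact letters were matched, so near variants of these 4 words were not counted.

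The members are also close copies in their transcripts, with 72.5% to 91.8% identical bases between any pair, the highest between Lce3b and Lce3c. Of the windows of 75 bases, the length of a read, 6.15% in Lce3b to 45.6% in Lce3f also occurred in another member, and 0% in any other gene. Within the last 300 bases, where 3′ libraries mostly read, 35.8% of the windows of Lce3d and 12.8% of those of Lce3c were shared, and 0% of the windows of the other 4 members. How reads that fit several copies were counted is not given in the sources used here, so the split between Lce3c and Lce3d is uncertain. The 6 rows were therefore also summed.

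Library totals were 7080508 to 8773876 counts in the Cont and LowAhR groups and 10614393 to 13467477 in the DNCB groups, so sequencing depth moved with DNCB. Levels are given as CPM, counts scaled to a common total with TMM factors, and 3 counts, the limit that a count of 0 allows for counting error only, corresponded to 0.229 to 0.406 CPM. LowAhR+AD replicate 1 stood apart. Of the genes predicted from its group to have 20 to 40 counts, 32% were at 0 in that library, against 1.03% to 13.7% in every other library. It enters every LowAhR+AD result, and values without it are given for the Lce3 genes and the gene lists. Markers of basal keratinocytes (5 genes such as Krt5 and Krt14) summed to at least 1961 CPM in every library. With DNCB, the skeletal muscle markers fell in 7 of 7 genes, from summed levels of 6672 to 17833 CPM in LowAhR to 376 to 3009.6 CPM in LowAhR+AD, and the adipocyte markers in 5 of 6. Of 5 fibroblast markers Col1a1 and Col1a2 fell, and the sums went from 23355 to 44369 CPM to 3349 to 17323 CPM. Of 5 T cell markers Cd3e and Cd3g fell, with sums of 20.03 to 34.9 CPM and 0 to 8.78 CPM. Of 4 tested neutrophil markers Cxcr2 rose (sums of 4.89 to 13.7 CPM and 9.85 to 42.8 CPM), of 5 suprabasal keratinocyte markers Krt2 fell, of 3 tested sebaceous gland markers Awat2 fell, and of 5 macrophage markers 0 passed. Of the basal keratinocyte markers 3 of 5 rose and 1 fell, and the summed level went from 2234 to 2568 CPM to 4987 to 10027 CPM. Of the 10 hair follicle markers 0 passed the test in this comparison, with sums of 45.3 to 5434 CPM in LowAhR and 4641 to 13257 CPM in LowAhR+AD. Without LowAhR+AD replicate 1 the counts called were 6 for muscle, 5 for adipocytes, 2 each for fibroblasts and T cells, 1 each for neutrophils and sebaceous gland, and 0 for suprabasal keratinocytes and macrophages, and 2 basal keratinocyte markers rose and 1 fell. The fibroblast calls were both lost without LowAhR replicate 2 or LowAhR+AD replicate 2 or 4, that of Cxcr2 without LowAhR replicate 1, 2 or 3 or LowAhR+AD replicate 4, that of Krt2 without LowAhR replicate 2 or LowAhR+AD replicate 1, 3 or 4, and that of Awat2 without LowAhR replicate 1. The muscle count was 4 without LowAhR replicate 3 or 4 or LowAhR+AD replicate 2, and 3 hair follicle markers were called higher without LowAhR replicate 4. What part these markers have in the Lce3 levels was not tested, and in bulk skin more cells that express a gene and more RNA per cell cannot be told apart.

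All 6 Lce3 genes were higher with DNCB on the low AhR ligand diet than with the diet alone, with log2 fold changes from 3.13 (Lce3c) to 7.05 (Lce3b). Over all 14854 tested genes, 6.42% were called higher in this comparison at an adjusted p under 0.05 (edgeR). Lce3b and Lce3e, with the largest fold changes, passed the filter on low counts only through the DNCB groups. Among the LowAhR and LowAhR+AD libraries alone they were not tested, so the count of 6 rests in part on that filter. The median log2 fold change of the 6 members was 4.65, and that of all tested genes 0.038. In 3 of the 4 LowAhR+AD libraries every member was above all LowAhR libraries. The exception was LowAhR+AD replicate 1, where Lce3a and Lce3e had a count of 0. How many of all tested genes were apart in this way was not counted.

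**Figure D1:**
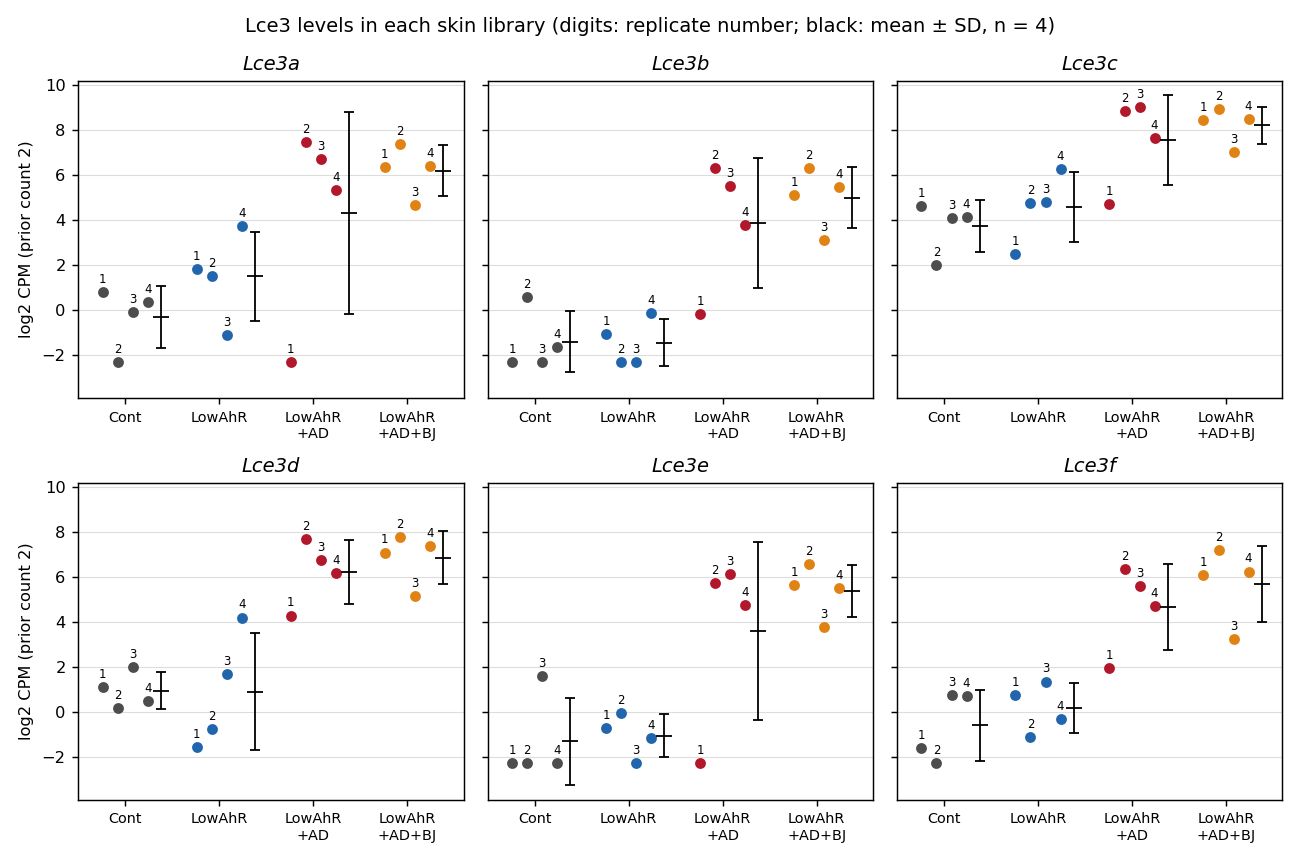
Level of each Lce3 gene in each library, as log2 CPM with a prior count of 2 (vertical axis), by group (horizontal axis). Each point is 1 library with its replicate number, and the black mark is the mean ± SD of 4 libraries. In all 6 panels the LowAhR+AD+BJ points lie above the LowAhR points, and LowAhR+AD replicate 1 is the lowest point of its group.

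Lce3b had 0.27, 0, 0 and 0.72 CPM in LowAhR replicates 1 to 4 and 0.69, 80.0, 46.3 and 13.8 CPM in LowAhR+AD replicates 1 to 4. LowAhR replicate 4 thus lay just above LowAhR+AD replicate 1, and the groups overlapped through that library only. Lce3b differed by 7.05 on the log2 scale (SE 1.34, edgeR adjusted p = 0.00320). As the LowAhR libraries held 8 counts of Lce3b in all, the size of this fold is loosely fixed.

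Lce3e had 0.41, 0.77, 0 and 0.24 CPM in the LowAhR libraries, and 0, 53.2, 70.2 and 26.7 CPM in the LowAhR+AD libraries. No LowAhR library held more than 6 counts of it, and LowAhR+AD replicate 1 was the lone library of its group at 0. Lce3e differed by 6.68 on the log2 scale (SE 1.47, edgeR adjusted p = 0.00731).

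Lce3f had 1.49, 0.26, 2.34 and 0.60 CPM in LowAhR and 3.66, 81.0, 48.6 and 26.3 CPM in LowAhR+AD. The groups did not overlap (exact permutation p = 0.0286, the smallest that 4 libraries against 4 can give). Adjusted over the 30 permutation tests made, this exact permutation p was 0.0779. Lce3f differed by 5.09 on the log2 scale (SE 1.00, edgeR adjusted p = 0.00382).

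Lce3d had 0.14, 0.38, 2.99 and 18.1 CPM in LowAhR and 19.3, 209, 106.7 and 71.8 CPM in LowAhR+AD. The groups again did not overlap, although LowAhR replicate 4 came close to LowAhR+AD replicate 1 (exact permutation p = 0.0286, adjusted 0.0779). Lce3d differed by 4.21 on the log2 scale (SE 0.97, edgeR adjusted p = 0.00965) and 6.42 without LowAhR replicate 4.

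Lce3a had 3.38, 2.69, 0.26 and 13.1 CPM in LowAhR and 0, 177, 106.6 and 40.6 CPM in LowAhR+AD. Here LowAhR+AD replicate 1 lay under every LowAhR library, and the permutation test did not set the groups apart (exact permutation p = 0.343). Lce3a differed by 4.05 on the log2 scale (SE 1.18, edgeR adjusted p = 0.0317).

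Lce3c had 5.41, 26.6, 27.6 and 78.6 CPM in LowAhR and 26.0, 459, 526 and 200.4 CPM in LowAhR+AD. It was the only member with at least 10 counts in every library of the series, and 3 of its LowAhR+AD libraries were above all LowAhR libraries (exact permutation p = 0.114). Lce3c differed by 3.13 on the log2 scale (SE 0.80, edgeR adjusted p = 0.0162).

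Without LowAhR+AD replicate 1 the group means of LowAhR+AD went from 81.2 ± 77.8 (SD, n = 4) to 108 ± 68.4 CPM (SD, n = 3) for Lce3a, and from 303 ± 232 to 395 ± 172 CPM for Lce3c. All 6 members passed without this library, with log2 fold changes of 3.52 (Lce3c) to 7.46 (Lce3b). Over the 8 fits without 1 library of these groups, the log2 fold changes ranged from 2.72 to 3.93 for Lce3c, from 3.34 to 5.26 for Lce3a and from 3.605 to 6.42 for Lce3d. They ranged from 4.49 to 5.69 for Lce3f, from 6.19 to 7.38 for Lce3e and from 6.27 to 8.46 for Lce3b. The call of Lce3a was lost without LowAhR replicate 1, 2 or 3 or LowAhR+AD replicate 2 (adjusted p = 0.0895, 0.0895, 0.0765 and 0.0837 from edgeR), and that of Lce3c without LowAhR replicate 2 (edgeR adjusted p = 0.0511). With limma voom in place of edgeR, 1 of the 6 passed, Lce3c (adjusted p = 0.0480), although the log2 fold changes were still 2.26 to 6.20. With the model restricted to the 8 libraries of both groups, Lce3b and Lce3e were not tested and Lce3f alone of the other 4 passed (edgeR adjusted p = 0.0156). DESeq2 called all 6.

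**Figure D2:**
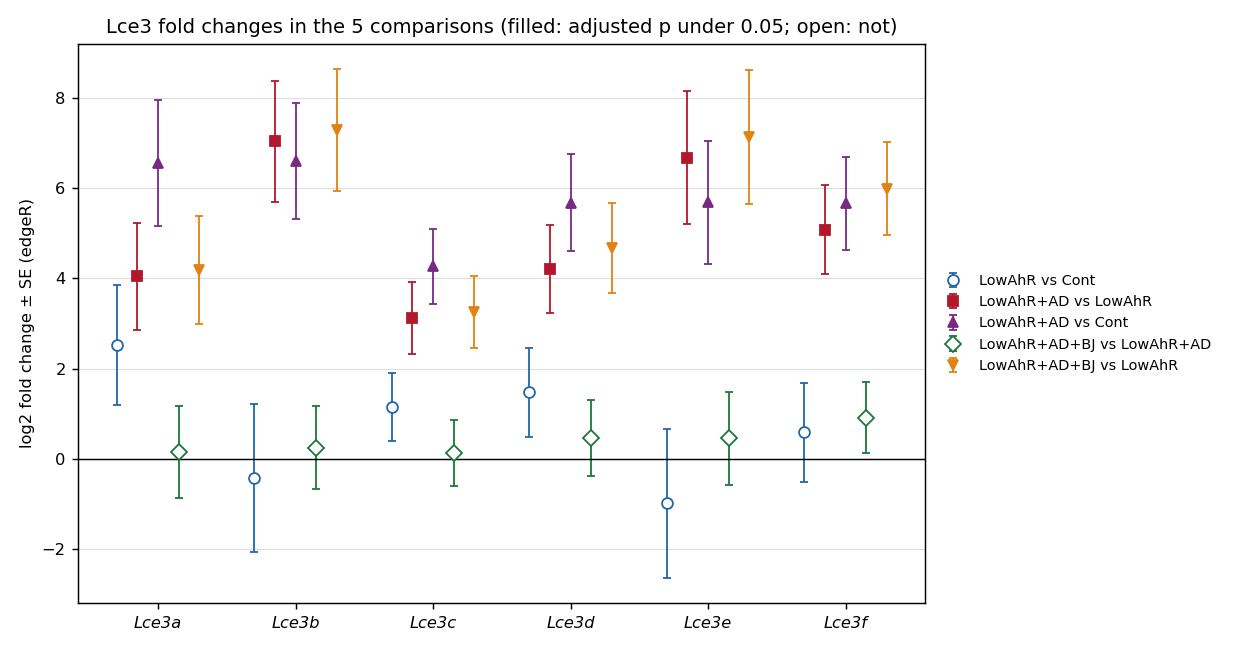
edgeR log2 fold change of each Lce3 gene (vertical axis, bars are ± SE) in the 5 comparisons (colours and marker shapes). Filled markers had an adjusted p under 0.05. The 3 comparisons of a DNCB group with a group without DNCB lie between 3.13 and 7.29, and the 12 open markers lie between -0.995 and 2.52.

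Against Cont, the 6 members were higher in LowAhR+AD by 4.27 (Lce3c) to 6.61 (Lce3b) on the log2 scale, with a median of 5.69 (all tested genes 0.045). All 6 passed, where 12.3% of all tested genes were called higher (edgeR). This count also rests in part on the filter, which Lce3b and Lce3e passed only through the DNCB groups. Adjusted p-values from edgeR were 0.00115 (Lce3f) to 0.00651 (Lce3e). This comparison shares the LowAhR+AD libraries with the previous one, so it is no second measurement of the same rise. In Lce3c, Lce3d and Lce3f the groups did not overlap (exact permutation p = 0.0286 for each, adjusted 0.0779). LowAhR+AD replicate 1 lay within the Cont range for Lce3a, Lce3b and Lce3e. The share of all tested genes without overlap was not counted. The 6 calls held without any single library of either group. The size of 2 folds depended on 1 Cont library each: the log2 fold change of Lce3e was 5.69 and 11.6 without Cont replicate 3, and that of Lce3b was 6.61 and 9.36 without Cont replicate 2, as these libraries held nearly all Cont counts of the gene. With limma voom only Lce3c passed (adjusted p = 0.0246).

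With BJIKT added to the diet and DNCB, the Lce3 genes were still above their LowAhR levels. No member differed between LowAhR+AD+BJ and LowAhR+AD by more than the spread between mice, and the log2 fold changes were 0.13 (Lce3c) to 0.91 (Lce3f), with a median of 0.35 (all tested genes -0.00024). In this comparison 0 of the 6 members were called, as were 0% of all tested genes (edgeR), 1405 of which reached an unadjusted p under 0.05, and DESeq2 called 17 genes, none of them a Lce3 gene.

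After BJIKT, Lce3f had 68.2, 147, 9.26 and 75.7 CPM, a mean of 74.9 ± 56.2 CPM (SD, n = 4) against 39.9 ± 32.97 CPM in LowAhR+AD. Its log2 fold change of 0.91 had an approximate 95% interval of -0.76 to 2.57 (edgeR adjusted p = 0.740). Replicate 2 was the highest of the treated libraries and replicate 3 the lowest, as in each of the other members.

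Lce3d had 136, 223, 35.2 and 166 CPM after BJIKT, with a log2 fold change of 0.46 (95% interval -1.30 to 2.22, edgeR adjusted p = 0.886). Lce3e had 50.0, 96.2, 13.5 and 45.4 CPM, and a log2 fold change of 0.45 (95% interval -1.72 to 2.62, edgeR adjusted p = 0.914). The levels of both genes in LowAhR+AD replicates 2 to 4 lay between the lowest and the highest of these libraries.

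Lce3b had 34.4, 79.5, 8.48 and 44.7 CPM after BJIKT and a log2 fold change of 0.25 (95% interval -1.68 to 2.17, edgeR adjusted p = 0.95). Lce3a had 81.8, 167, 25.2 and 84.1 CPM and a log2 fold change of 0.14 (95% interval -2.01 to 2.29, edgeR adjusted p = 0.973). Lce3c had 349, 490.4, 130 and 359 CPM and a log2 fold change of 0.13 (95% interval -1.40 to 1.67, edgeR adjusted p = 0.966). For Lce3a the interval runs from 0.249 to 4.89 times the LowAhR+AD level, so these tests do not show that the levels were alike. Exact permutation p-values of the 6 members were 0.457 to 0.714. The direction of the smallest differences turned with single libraries. Without LowAhR+AD replicate 1 the log2 fold changes were -0.29 (Lce3a), -0.18 (Lce3b) and -0.26 (Lce3c), and 0.025 (Lce3e) to 0.51 (Lce3f) in the other members. Without LowAhR+AD+BJ replicate 2 they were -0.36 (Lce3a), -0.28 (Lce3b), -0.13 (Lce3c) and -0.060 (Lce3e), and without LowAhR+AD replicate 4 they were -0.083 (Lce3a), -0.020 (Lce3b) and -0.023 (Lce3c).

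LowAhR+AD+BJ was also set against LowAhR, a comparison whose libraries do not include LowAhR+AD replicate 1. In the shared model that library still entered the filter, the TMM factors and the estimate of spread behind the edgeR p-values. With only the 8 libraries of both groups, adjusted p-values of the members were 0.00067 (Lce3e) to 0.0182 (Lce3d) from edgeR. In that fit Lce3b and Lce3e passed the filter through the treated libraries alone. All 6 members were above the LowAhR range in all 4 libraries (exact permutation p = 0.0286 for each, 0.0779 when adjusted over the 30 permutation tests made). For how many of all tested genes this held was not counted, and 3291 of them had an unadjusted p under 0.05 (edgeR). All 6 members passed, where 3.64% of all tested genes were called higher (edgeR). Lce3b and Lce3e passed the filter on low counts only through the DNCB groups, so this count too rests in part on that filter. Log2 fold changes were 3.26 (Lce3c), 4.19 (Lce3a), 4.67 (Lce3d), 5.99 (Lce3f), 7.13 (Lce3e) and 7.29 (Lce3b). Their median was 5.33, against 0.0078 over all tested genes. Adjusted p-values from edgeR were 0.00300 (Lce3f) to 0.0416 (Lce3a). Lce3a lost its call in 6 of the 8 fits without 1 library, those without LowAhR replicate 1, 2 or 3 or LowAhR+AD+BJ replicate 1, 2 or 4 (adjusted p = 0.0722 to 0.124 from edgeR), and Lce3c in 4, those without LowAhR replicate 1, 2 or 3 or LowAhR+AD+BJ replicate 2 (adjusted p = 0.0520 to 0.0673 from edgeR). With limma voom only Lce3c passed (adjusted p = 0.0303).

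The diet alone gave no called change. In LowAhR against Cont 0 of 6 members passed, as did 0% of all tested genes (edgeR), although 2031 of them reached an unadjusted p under 0.05. DESeq2 called 491 genes there, 0 of them Lce3 genes. Lce3a had 1.54, 0, 0.74 and 1.08 CPM in Cont, and 3 of the 4 LowAhR libraries were above all of these. Its log2 fold change was 2.52 (95% interval -0.26 to 5.30, edgeR adjusted p = 0.421), and it was 1.31 without LowAhR replicate 4, the highest of its group.

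Lce3c had 24.3, 3.88, 17.0 and 17.7 CPM in Cont and a log2 fold change of 1.14 under the diet (95% interval -0.45 to 2.72, edgeR adjusted p = 0.554). Lce3d had 1.93, 0.90, 3.83 and 1.20 CPM in Cont and a log2 fold change of 1.47 (95% interval -0.61 to 3.55, edgeR adjusted p = 0.560). Both rest on LowAhR replicate 4, with 78.6 CPM of Lce3c and 18.1 CPM of Lce3d. Without it the values were 0.34 (Lce3c) and -0.73 (Lce3d). The same library had the highest sum of hair follicle markers in its group, 5434 CPM against 45.3 to 1587 CPM, and of barrier injury genes, 1824 CPM against 630.5 to 1079 CPM. What these values have to do with its Lce3 levels was not tested.

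The other 3 members were near the limit of detection without DNCB. Lce3b had 0, 1.29, 0 and 0.12 CPM in Cont, and Lce3e 0, 0, 2.84 and 0 CPM. Lce3f had 0.13, 0, 1.48 and 1.44 CPM there. Each of them lay under 3 CPM in all 8 libraries without DNCB, and a difference between the diets was not detectable at this depth. The log2 fold change was -0.43 for Lce3b (95% interval -3.90 to 3.03), -0.995 for Lce3e (-4.45 to 2.46) and 0.58 for Lce3f (-1.72 to 2.88). Without Cont replicate 2 that of Lce3b was 2.31, and without Cont replicate 3 that of Lce3e was 4.86.

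A sum over the 6 rows does not depend on how shared reads were split among the copies. It would change if such reads were left out or counted in several rows, which is not known. The Lce3 counts so summed were 47 to 217 in the Cont libraries and 82 to 934 in the LowAhR libraries. They were 651, 12913, 11635 and 4727 in LowAhR+AD and 7880, 11810, 2847 and 7677 in LowAhR+AD+BJ. Fitted as 1 row, their log2 fold change was 3.68 in LowAhR+AD against LowAhR, 3.97 in LowAhR+AD+BJ against LowAhR and 0.29 between both DNCB groups. LowAhR+AD replicate 1 thus held fewer Lce3 counts than LowAhR replicate 4, although its total was larger.

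The make-up of these counts is given by group, as a description of counts rather than of molecules, and differences in it were not tested. It rests in part on the uncertain split between Lce3c and Lce3d. Lce3c took 63.8% to 87.1% of the Lce3 counts in the Cont libraries and 48.8% to 86.7% in the LowAhR libraries. With DNCB it took 43.3% to 58.2% in LowAhR+AD and 40.8% to 58.6% in LowAhR+AD+BJ. Lce3d took 11.8% to 38.9% in LowAhR+AD and 1.22% to 16.3% in LowAhR, and the ranges of both genes overlapped between these groups. In LowAhR+AD+BJ Lce3e took 5.86% to 8.0%, Lce3b 3.83% to 6.61% and Lce3f 4.18% to 12.2%. The Cont libraries held few Lce3 counts. In Cont replicate 2, for instance, 10 counts of Lce3b made up 21.3% of 47. LowAhR+AD replicate 1 was again unlike its group, with 38.9% of Lce3d and 0% of Lce3a and Lce3e.

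**Figure D3:**
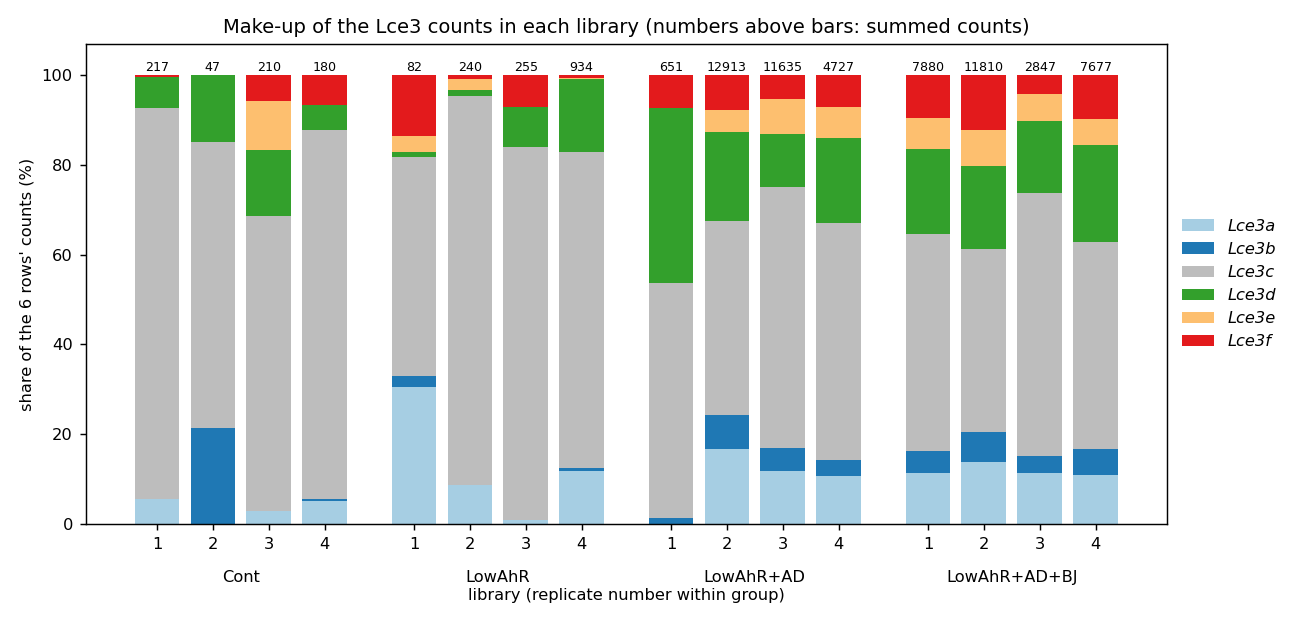
Share of each Lce3 gene in the summed Lce3 counts of each library, in percent (vertical axis), for 4 libraries a group (horizontal axis). Colours are genes and the numbers above the bars are the summed counts, 47 to 934 without DNCB and 651 to 12913 with it. The grey Lce3c segment is at most 58.6% in the DNCB libraries.

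The rows beside the Lce3 cluster are given as a description. The 5 rows on either side, in the order of the tables, were Lce1j, Lce1k, Kprp, Lce1l and 2310050C09Rik before it and Crct1, Lce1m, Gm4858, Crnn and Flg2 behind it. Of these 10 rows 9 had enough counts to be tested. In LowAhR+AD against LowAhR 6.42% of all 14854 tested genes were called higher and 923 genes lower (edgeR). Counts among 9 rows are too small to set the neighbours apart from these shares. Of the 9 rows 0 were called higher and 1 was called lower. The lower one was Flg2, which encodes a filaggrin-like protein, at -2.69 on the log2 scale (edgeR adjusted p = 0.0426), and it was not called without LowAhR+AD replicate 1 (-2.32, edgeR adjusted p = 0.0619), where no neighbour was called. The rows that border the cluster, 2310050C09Rik and Crct1, had log2 fold changes of -0.68 and -0.059, with levels of 378 ± 550 CPM and 1551 ± 1064 CPM (SD, n = 4) in LowAhR+AD. Lce1m, which stands beyond Crct1, had 1051 ± 345 CPM in LowAhR and 103 ± 184 CPM in LowAhR+AD without overlap, but its log2 fold change of -3.35 did not pass (edgeR adjusted p = 0.0686). Without LowAhR+AD replicate 3, Flg2, Lce1m, Lce1l, Lce1j and 2310050C09Rik were called lower. Against Cont, where 12.3% of all tested genes were called higher in LowAhR+AD, 1 neighbour was. It was Crnn, which encodes the squamous epithelial protein cornulin (edgeR adjusted p = 0.00679). Crnn was at 0 in all Cont libraries, at 5.99 ± 6.83 CPM in LowAhR and at 7.79 ± 5.58 CPM in LowAhR+AD (SD, n = 4). Kprp and Flg2 were called lower there (-1.87 and -3.30, edgeR adjusted p = 0.0139 and 0.0110). Without LowAhR+AD replicate 1, Crct1 was also called higher against Cont (0.99, edgeR adjusted p = 0.00443).

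**Figure D4:**
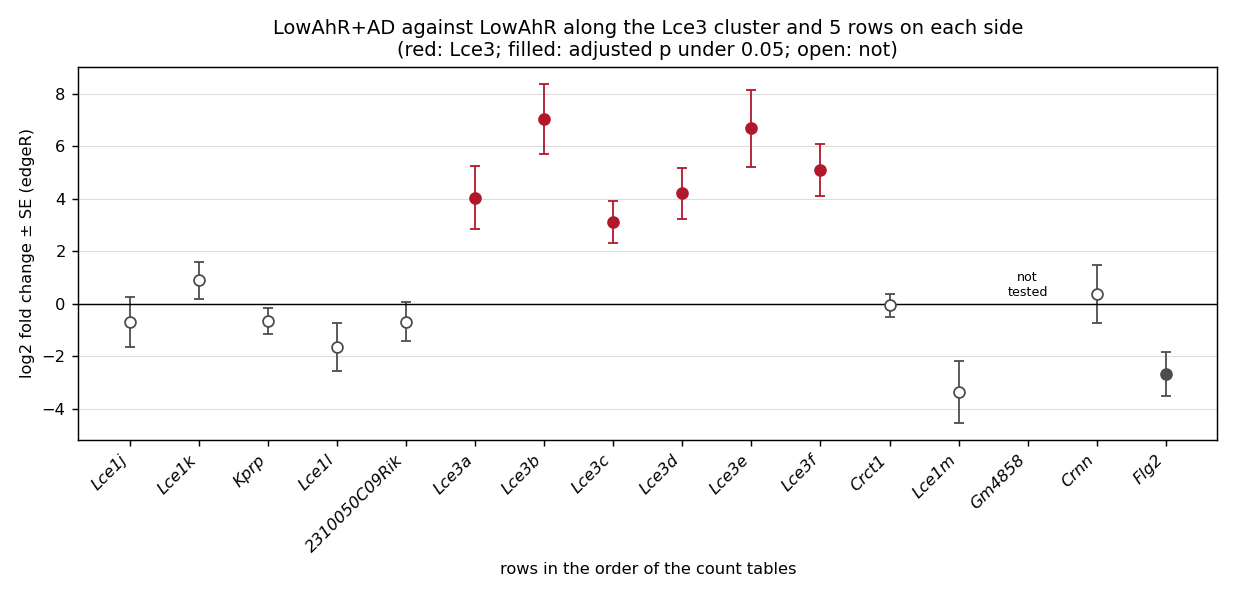
edgeR log2 fold change from LowAhR to LowAhR+AD (vertical axis, bars are ± SE) for the 6 Lce3 rows (red) and 5 rows on each side (grey), in the order of the count tables (horizontal axis). Filled points had an adjusted p under 0.05. The 6 red points are at 3.13 or more, and every tested neighbour is at 0.89 or less.

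Other epidermal gene lists are given by their counts and medians, as a description beside those of the Lce3 genes. Of a list of 14 Lce1 genes, which encode the envelope proteins of intact epidermis, and the related Lce6a, 0 of 15 were called higher and 0 lower in LowAhR+AD against LowAhR, with a median log2 fold change of -0.0016. Their fold changes ran from -3.35 (Lce1m) and -1.65 (Lce1l) to 0.89 (Lce1k) and 2.11 (Lce1g). This count rested on LowAhR+AD replicate 3, which had by far the highest sum of suprabasal keratinocyte markers in its group, 7927 CPM against 267 to 888 CPM. Without that library 7 were called lower, 6 Lce1 genes and Lce6a, and without LowAhR+AD replicate 1, 1 was called higher, Lce1g. The 6 Lce3 calls held without either library.

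Of the 15 Sprr genes, whose proteins bridge other proteins in the envelope, 12 were tested, 7 rose and 0 fell, with a median log2 fold change of 3.05. The highest were Sprr2g (5.68) and Sprr2e (5.42), and the lowest were Sprr1a, which rose by 1.61, and Sprr4, at -1.41 without passing. The count of 7 was 3 without LowAhR+AD replicate 2, 4 without LowAhR replicate 1 or 2 and 3 with limma voom, and it was 10 without LowAhR+AD replicate 1. The call of Sprr2e was lost without LowAhR replicate 1, 2 or 3 or LowAhR+AD replicate 2, and that of Sprr1a without LowAhR replicate 2 or 3 or LowAhR+AD replicate 2. Of 12 barrier injury genes, which hold the stress keratins, alarmins and antimicrobial proteins of damaged epidermis, 10 rose and 0 fell, with a median of 4.39. Krt6b, a keratin of wounded epidermis, rose by 8.41 and Krt16, a keratin that pairs with it, by 5.66, while Areg, an epidermal growth factor, at 1.52, and the defensin gene Defb14, at -0.62, did not pass. The summed level of this list was 630.5 to 1824 CPM in LowAhR and 11803 to 35827 CPM in LowAhR+AD, and LowAhR+AD replicate 1 was not the lowest of its group in it. Without that library 10 genes of the list were again called higher.

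Of 19 cornified envelope genes, 18 were tested, with a median log2 fold change of -0.28. Tgm3, a transglutaminase that cross-links the envelope, rose by 2.12, and Flg2 fell by 2.69. Lor, the main envelope protein, was at -1.52 and Rptn, a filaggrin-like gene, at 1.96, and neither passed. The fall of Flg2 was not called without LowAhR replicate 1, 2 or 3 or LowAhR+AD replicate 1, 2 or 4, while 2 genes were called lower without LowAhR replicate 4 and 4 without LowAhR+AD replicate 3. Without LowAhR+AD replicate 1, 4 genes were called higher and 1, Krtdap, lower. Of 15 epidermal transcription factors 6 rose and 1 fell. Fosl1, an AP-1 subunit, rose by 4.39 and Tfap2a by 1.42, Klf4 fell by 0.90, and Cebpa was at -0.26 without passing. Without LowAhR replicate 1 or 3 the count of 6 was 3 and Fosl1 was not called, without LowAhR+AD replicate 1 it was 5, and the fall of Klf4 was not called without LowAhR replicate 2 or 3 or LowAhR+AD replicate 4.

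Of 14 genes of the IL-17, IL-22 and IL-36 pathways 10 had a row in the tables and 5 were tested. Il22ra1, a subunit of the IL-22 receptor, fell by 1.46, a call lost without LowAhR replicate 1 or LowAhR+AD replicate 2, and Il1rl2 (-1.54), Il17ra (0.15) and Il17rc (0.49) did not pass. Of the list's tested genes 1 was called lower without LowAhR+AD replicate 1 as well. Of 10 type 2 genes 7 were tested, and Il4ra, the shared receptor chain of IL-4 and IL-13, rose by 1.07. This call was lost without LowAhR replicate 1, 3 or 4 or LowAhR+AD replicate 2 or 4, and 2 genes were called higher without LowAhR+AD replicate 1. Ccl17 (-4.95), Ccl22 (-1.37) and Il33 (0.85) did not pass, and 1 gene of the list was called lower without LowAhR replicate 4 or LowAhR+AD replicate 4.

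**Figure D5:**
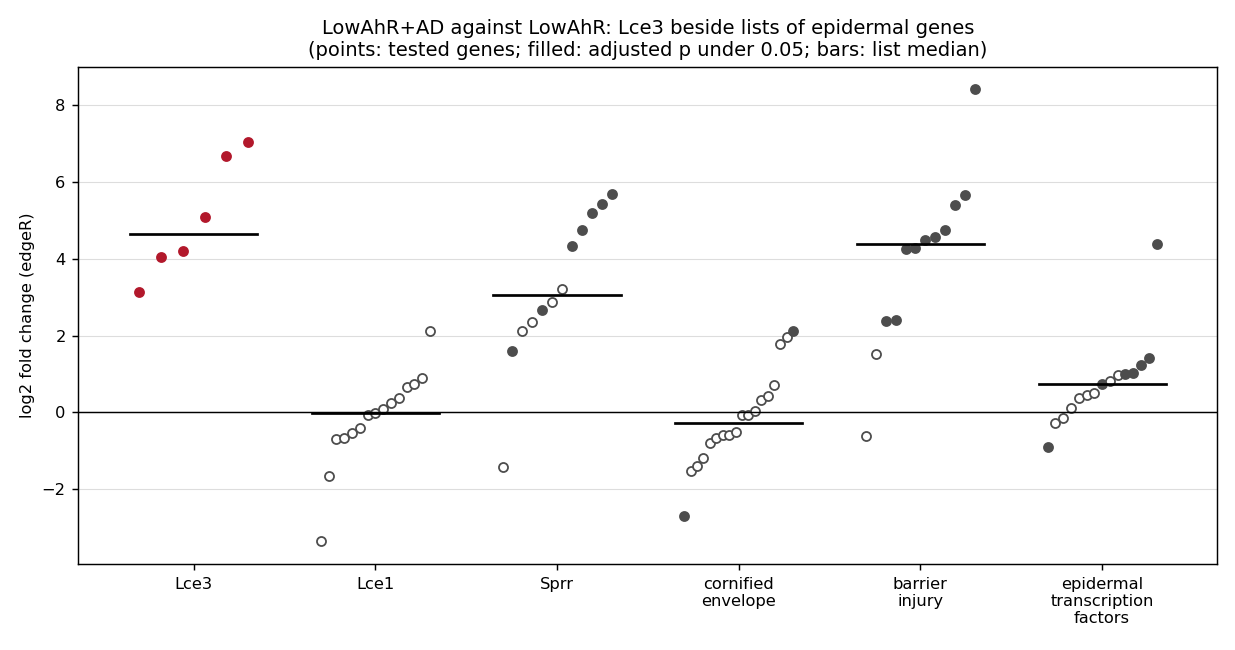
edgeR log2 fold change from LowAhR to LowAhR+AD (vertical axis) of the tested genes of 6 lists (horizontal axis). Each point is a gene, filled where its adjusted p was under 0.05, and bars are list medians. The Lce3 median of 4.65 and the barrier injury median of 4.39 stand above the Sprr median of 3.05, and the Lce1 and cornified envelope medians are at or under 0.

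The genes whose pattern over the 16 libraries was most like a member were found by the mean absolute difference of log2 CPM, after each gene was centred on its own mean. This distance uses the same libraries as the comparisons and is a description. Among all 14853 other tested genes, Lce3e ranked 3 and Lce3b ranked 5 for Lce3a (1.11 and 1.20), behind S100a8 (1.06), a neutrophil and keratinocyte alarmin, and Sprr2e (1.07), with Sprr2h (1.14) between. Nearest to Lce3b were Sprr2e (1.02), Sprr2f (1.03), Lce3f (1.04), the beta-defensin Defb3 (1.05) and Lce3e (1.05). Nearest to Lce3e were Sprr2e (0.90), Stfa1 (0.96), Lce3b (1.05), Lce3a (1.11) and Lce3f (1.13). These 3 members thus had other Lce3 genes among their 5 nearest.

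The 5 genes nearest to Lce3f were S100a8 (0.83), S100a9 (0.84), Epgn (0.89), Krt16 (0.89) and Gm5483 (0.91). Those nearest to Lce3d were Krt16 (0.63), Serpina9 (0.84), Krt6a (0.88), BC100530 (0.95) and Sprr1b (0.97), and those nearest to Lce3c were Crabp1 (0.62), Car2 (0.70), A730020E08Rik (0.74), Sprr2h (0.75) and Clec2e (0.77). For these members no other Lce3 gene was among the 5. The nearest Lce3 gene was Lce3f, at rank 8, for Lce3d, Lce3d, at rank 10, for Lce3f and Lce3d, at rank 60, for Lce3c. The median distance over all other genes was 2.09 for Lce3c and 2.79 to 3.32 for the other 5 members.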

How the data were processed

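Total RNA of dorsal skin from 16 mice, 4 randomly chosen per group, was made into QuantSeq 3′ mRNA libraries and sequenced from a single end. The authors deposited whole-number read counts per gene symbol for each library, with no normalization. The submitters' processing notes name Bowtie2, bedtools and the mm10 build. Versions, the counter and the handling of reads that fit several copies are not given in the sources used here, and no molecular identifiers are mentioned. Groups and replicate numbers were taken from the sample titles. The tables had 23282 rows with 23238 symbols, and 35 symbols stood in several rows.

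The counts were tested with edgeR 4.0.16 (R 4.3.3). Rows were kept by filterByExpr (minimum count 10, minimum total 15), which left 14854 rows. TMM factors were 0.892 to 1.16. A single quasi-likelihood model held all 16 libraries. P-values of each of 5 comparisons were adjusted (Benjamini-Hochberg) across the tested rows, with calls at an adjusted p under 0.05. Intervals are approximate, from the F statistic. Single genes were also compared on log2 CPM (prior count 2) by two-sided exact permutation tests over 70 divisions. The tests were run on simulated counts first. Replicates of a group differed by more than sampling noise (chi-square per degree of freedom 15.1 to 254 over 24 pairs), so each library counted as 1. Each result was recomputed with RLE or upper-quartile factors, with DESeq2 1.42.0, limma 3.58.1 voom, no filter, at least 10 counts in every library, the 8 compared libraries alone, a replicate block, each library left out, the 6 Lce3 rows summed, and for the permutation tests the linear scale and a prior count of 0.5. Gene positions were from RefSeq for GRCm38 and promoters from RefSeq for GRCm38.p6. Transcripts, exons and protein lengths were from GENCODE for GRCm38. Transcript identity was computed with Biopython 1.88 and figures with matplotlib 3.10.9.

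All Lce3 genes were named in every library. From lists of Lce1, Sprr, cornified envelope, barrier injury, IL-17, IL-22 and IL-36, type 2 and epidermal transcription factor genes, the 2 highest and 2 lowest log2 fold changes in LowAhR+AD against LowAhR were named, and also the 5 rows on each side of the cluster and the 5 genes nearest to each member. The members and all lists were chosen with earlier results of these data known.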

Additional observations from a re-analysis of the deposited data

Results flagged for a closer look

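In 2 of the 24 groups of 4 libraries tested, 1 library lay far from the other 3 by Dixon's criterion at the 95% level. For normally distributed values chance alone meets it in about 1 of 20 groups, a rate that need not hold for counts near 0. For Lce3e in Cont, replicate 3 held all 23 counts of the group, 2.84 CPM, and the other 3 libraries were at 0 (gap divided by range 1). With 3 libraries at 0, any count in the remaining library gives this ratio. For Lce3e in LowAhR+AD, replicate 1 was at 0 and the other 3 libraries were at 26.7 to 70.2 CPM (gap divided by range 0.835). The second of these is the library with many genes at 0.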

How the results depend on the processing

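Of the 6 Lce3 genes, limma voom called 1 in LowAhR+AD against LowAhR, 1 against Cont and 1 in LowAhR+AD+BJ against LowAhR, each time Lce3c. With at least 10 counts in every library, only Lce3c was tested, and it was called in each of these (1, 1 and 1). A model of only the 8 libraries compared called 1 of 4 tested in LowAhR+AD against LowAhR. Without 1 library 4 to 6, 6 to 6 and 4 to 6 were called. Apart from fewer genes tested, the cause was not tested. Over all genes, LowAhR against Cont gave 0 calls, 491 with DESeq2, 45 with the strict filter, 250 with 8 libraries and 0 to 159 without 1 library. LowAhR+AD against LowAhR gave 1876, 765 with 8 libraries and 1128 to 2015 without 1 library, LowAhR+AD+BJ against LowAhR+AD 0, 17 with DESeq2 and 0 to 1 without 1 library, and LowAhR+AD+BJ against LowAhR 1005, 1676 with DESeq2 and 414 to 1469 without 1 library. LowAhR+AD against Cont gave 3233 and 2459 to 3486 without 1 library.

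Over the 3 comparisons with calls, 271 refits of single members turned 0 directions and lost 35 calls. Directions turned only where no call was made. In LowAhR against Cont the log2 fold change with limma voom was 0.062 for Lce3b, -0.18 for Lce3d and 0.85 for Lce3e, and without 1 library it was -1.84 to 2.31 for Lce3b, -0.73 to 2.01 for Lce3d, -1.68 to 4.86 for Lce3e and -0.0029 to 1.10 for Lce3f. In LowAhR+AD+BJ against LowAhR+AD it was -0.36 to 0.86 for Lce3a, -0.28 to 1.03 for Lce3b, -0.26 to 0.54 for Lce3c and -0.060 to 0.94 for Lce3e. The exact permutation test of LowAhR against Cont changed its sign for Lce3b with a prior count of 0.5 (p = 1) and for Lce3d and Lce3e on the linear scale (exact permutation p = 0.743 and 1).

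Same-numbered libraries of different groups had deviations with correlations of -0.055 to 0.17, and 3 of 20 pairs were over 0.1. Differently numbered libraries had correlations of -0.146 to 0.140. Correlations this weak cannot tell whether equal numbers stand for a shared factor, and the methods name no pairing of mice across groups. With the replicate number as a block, Lce3a was called in neither DNCB group against LowAhR (log2 fold changes 4.23 and 4.29, adjusted p = 0.0644 and 0.0618 from edgeR), 5 of 6 members were called in each, and over all genes 1689, 2990 and 947 were called in the 3 comparisons with calls. Under the block the log2 fold change of Lce3b in LowAhR against Cont was 0.016.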
